A study of Caenorhabditis elegans with 9 samples.

Results

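The genes examined here encode the nuclear hormone receptors of Caenorhabditis elegans that carry the symbol nhr, a family of transcription factors. All protein-coding rows whose symbol begins with nhr- were taken from the deposited tables, which gave 267 genes out of 46904 listed genes and 20191 listed coding genes. For 243 of them the table gave protein-coding as the whole category, and for 24 it gave a noncoding category as well. A further 14 rows named nhr- were listed as pseudogenes and were left out.

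The 9 libraries hold RNA recovered with anti-GFP antibodies from whole hermaphrodite dauers, the arrested larval stage, which were grown at 25 °C and collected at 96 h, on day 2 of dauer. The bait in 8 libraries was HZL-1 fused to GFP. Every strain was mutant for daf-2, which encodes the insulin/IGF receptor, and held a transgene written as an extrachromosomal array, which can be absent from some cells. In aak(0) strains the catalytic subunits of AMP-activated protein kinase, encoded by aak-1 and aak-2, were missing as well. Under the nhx-2 promoter, which drives expression in the intestine, HZL-1::GFP was precipitated from daf-2; aak(0); hzl-1 dauers in 3 libraries and from daf-2; hzl-1 dauers in 3 libraries. GFP alone under the same promoter was precipitated from daf-2; aak(0) dauers in 1 library, and its label lists no hzl-1 mutation. HZL-1::GFP under the hzl-1 promoter was precipitated in 1 library from daf-2; aak(0); hzl-1 and in 1 from daf-2; hzl-1 dauers. No input RNA was analysed here, so each level holds both how abundant a transcript was and how well it was recovered. RNA of aak-2 was listed at 8.32 FPKM (fragments normalized for transcript length and depth) in the GFP library. In the intestinal HZL-1 libraries it was at 0, 2.11 and 3.36 for aak(0) and 6.13, 5.31 and 7.9 for daf-2. RNA of aak-1 was at 4.43 with GFP, at 0, 2.19 and 2.66 for aak(0) and at 0, 2.85 and 6.41 for daf-2. Both were thus higher with GFP than in every intestinal HZL-1 aak(0) library. Exons outside a deletion can be counted, and the genotype of the GFP library was not tested.

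Nuclear hormone receptors bind DNA through a zinc finger domain, and many bind a small lipophilic ligand through a second domain that recruits coactivators or corepressors. The nematode family is far larger than that of insects or vertebrates, and most of its members descend from an ancestor shared with vertebrate HNF4. In the intestine, which is also the main fat store of the worm, members such as NHR-49, NHR-80, NHR-10, NHR-68 and NHR-114 adjust fat, propionate and vitamin B12 metabolism to diet. Entry into dauer is itself decided by a nuclear receptor, DAF-12, which is not named nhr-.

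Reads assigned to genes numbered 7151604 to 17397251 per intestinal HZL-1 library. The endogenous set held 24035823 for aak(0) and 58132094 for daf-2. For GFP alone the read depth is unknown. Ribosomal RNA took 76.3% to 89.8% of the gene reads when the promoter was intestinal, and with the endogenous promoter 30.0% in aak(0) and 70.4% in daf-2. Of all coding genes, 16.3%, 23.8% and 28.4% were above 0 in aak(0) replicate 1, daf-2 replicate 1 and daf-2 replicate 3, which are called the sparse libraries below, against 53.7% to 81.0% in the other intestinal libraries. Transcripts of elt-2, which encodes the defining intestinal GATA factor, were at 0 in the sparse libraries and in endogenous aak(0), had 1 read in endogenous daf-2 and did not pass 0.96 FPKM elsewhere. Summed over 7 germline markers, the level was 60.8, 184 and 190 FPKM in aak(0) replicates 1 to 3, 143, 20.7 and 13.8 for daf-2 and 285 with GFP. All 7 were above 0 in these libraries except puf-5 and rme-2 in aak(0) replicate 1. Over 7 intestinal markers the summed level was 22.9 to 32.9 FPKM in aak(0), 24.9 to 47.1 in daf-2 and 33.6 with GFP. In the endogenous pair, 6 of these 7 markers, all but elt-2, had reads in aak(0), and all 7 had reads in daf-2. Their summed level there was 156 CPM (reads scaled to the gene reads of the library) in aak(0) and 192 CPM in daf-2. The germline markers summed to 252 and 648 CPM there. Under the intestinal promoter, 4 body wall muscle markers summed to 53.5 to 267 FPKM in aak(0), 41.65 to 139 in daf-2 and 91.8 with GFP. For 7 neuron markers the values were 65.9 to 96.5, 68.2 to 85.35 and 89.1. For 5 hypodermis markers they were 36.5 to 37.6, 8.82 to 21.3 and 34.5. The part of library sparseness and of germline and other non-intestinal RNA in the results on nhr genes was not tested.

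Detection of the receptor family varied widely between libraries of the same genotype. In intestinal HZL-1 aak(0) replicates 1 to 3, 31, 152 and 213 of the 267 nhr genes were listed above 0 FPKM. In daf-2 replicates 1 to 3 the numbers were 32, 145 and 46, and the GFP library held 179. The groups thus overlapped across most of their range. The endogenous aak(0) library held reads of 230 nhr genes and the endogenous daf-2 library held reads of 113. Counted by reads in the same way, the intestinal HZL-1 libraries held 39, 184 and 240 for aak(0) and 51, 147 and 60 for daf-2. Whether few cells expressed a receptor or each cell held little of its RNA cannot be told apart in such whole-animal material.

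The family was found less often than the average coding gene in most libraries. The shares of nhr genes above 0 were 11.6%, 56.9% and 79.8% in aak(0) replicates 1 to 3, against 16.3%, 63.1% and 81.0% of coding genes. In daf-2 they were 12%, 54.3% and 17.2% against 23.8%, 53.7% and 28.4%. With GFP the share was 67% against 72.3%. The order was reversed in daf-2 replicate 2, by a narrow margin, and in the endogenous aak(0) library, with 86.1% of nhr genes against 79.1% of coding genes, whereas endogenous daf-2 had 42.3% against 50.2%. The shares count FPKM above 0 in the intestinal set but reads above 0 in the endogenous pair, which are unlike criteria. These shares describe single libraries, and their differences were not tested.

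**Figure D1:**
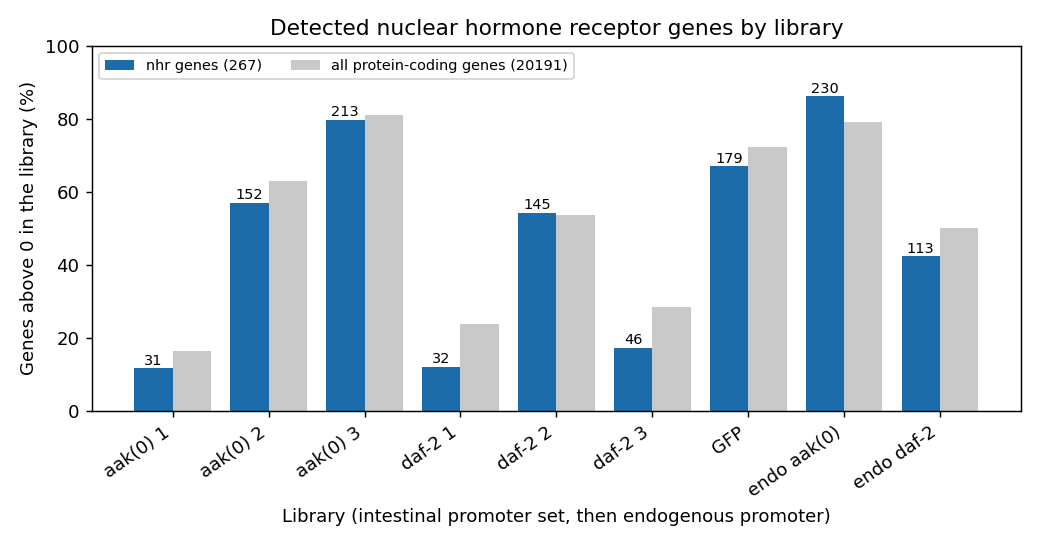
Bars give the percentage of the 267 nhr genes and of the 20191 coding genes listed above 0 in each of the 9 libraries. Above 0 refers to FPKM in the intestinal set and to reads in the endogenous pair. On these measures the nhr share was lowest in aak(0) replicate 1, at 11.6%, and highest in the endogenous aak(0) library, at 86.1%. Counted by reads, intestinal aak(0) replicate 3 held 240 nhr genes and the endogenous aak(0) library 230.

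Detected receptors rested on few reads in the intestinal HZL-1 libraries that held many of them. Where an nhr gene was detected, its median read count was 23 and 17.5 (aak(0) replicates 2 and 3) and 24 (daf-2 replicate 2), below the 54, 31 and 40 reads of detected coding genes. In the sparse libraries the median detected nhr gene had 191, 150 and 136 reads, against 186, 174 and 148 for detected coding genes. Fewer receptors were thus seen there and the typical detected one had more reads, as did the typical detected coding gene. The endogenous libraries had medians of 247 reads in aak(0) and 306 in daf-2, against 264 and 588 for detected coding genes. The table listed 0 FPKM for 4, 10 and 5 nhr genes with more than 100 reads in aak(0) replicate 1, daf-2 replicate 1 and daf-2 replicate 3, and for none in the other HZL-1 libraries of the intestinal set. With at least 3 reads as the criterion, 35, 177 and 226 nhr genes were detected in aak(0) and 45, 141 and 59 in daf-2. At 1 FPKM or more the counts were 25, 67 and 64 for aak(0), 28, 59 and 42 for daf-2 and 87 with GFP. Coding genes were not counted by these criteria, so whether the family differs from them there is unknown.

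The same receptors recurred only in part. In aak(0), 23 nhr genes were above 0 in all 3 libraries, and replicates 2 and 3 shared 137, which is 90.1% of those in replicate 2 and 64.3% of those in replicate 3. In daf-2, 18 were above 0 in all 3 libraries, and the sparse replicates 1 and 3 shared 18, or 56.3% and 39.1% of their detected nhr genes. The replicate 1 libraries of both genotypes shared 12, or 38.7% and 37.5%. Over the 6 intestinal HZL-1 libraries together 233 nhr genes were above 0 at least once, and over all 9 libraries 263 were. The matching sharing of all coding genes was not counted, and 16.3% of them were above 0 in aak(0) replicate 1. Whether this recurrence is particular to the receptors is therefore unknown.

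A core of 9 nhr genes was above 0 in all 9 libraries, namely nhr-88, nhr-97, nhr-49, nhr-14, nhr-48, nhr-41, nhr-66, nhr-34 and nhr-19. They made up 3.37% of the family, while 8.29% of coding genes were found that broadly. The median nhr gene was above 0 in 4 libraries and the median coding gene in 5. At the other end, nhr-223, nhr-249, nhr-272 and nhr-282 were at 0 in every library. Of 34 nhr genes at 0 in all 6 intestinal HZL-1 libraries, 11 were above 0 with GFP alone, and the matching share of coding genes was not counted.

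**Figure D2:**
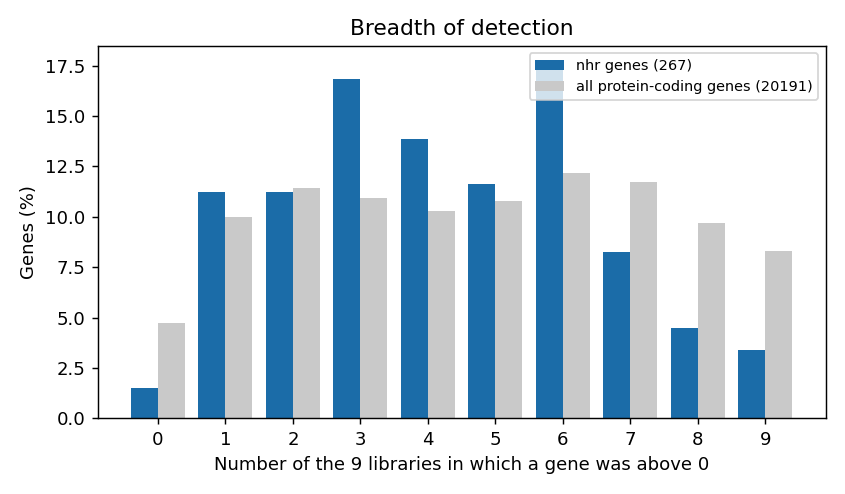
Bars give the percentage of the 267 nhr genes and of the 20191 coding genes that were above 0 in each number of libraries, from 0 to 9. All 9 libraries held 3.37% of nhr genes and 8.29% of coding genes, and no library held 1.5% and 4.73%.

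Most of the family lies on chromosome V, unlike its most abundant members in the intestinal set. That chromosome holds 165 of the 267 nhr genes (61.8%), against 24.7% of all coding genes, and chromosomes IV, I, X, II and III hold 33, 23, 23, 15 and 8. Of all nhr genes, 136 had another nhr gene as the next coding gene on either side, and 106 of these lie on V. None of the 9 receptors found in every library lies on V or beside another member, and none of the 20 with the highest mean level in the 6 intestinal HZL-1 libraries lies on V. In aak(0) replicate 1, 7.27% of the nhr genes on V were above 0 against 18.6% of those elsewhere, where coding genes gave 11.7% and 17.8%. In the endogenous aak(0) library the order was the opposite, with 89.1% on V and 81.4% elsewhere, and with 76.4% and 80% for coding genes. Members on X were above 0 in a median of 6 libraries and those on I in 2, where the coding genes of these chromosomes gave 4 and 6.

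Summed over the family, nhr transcripts reached 432, 254 and 243 FPKM in aak(0) replicates 1 to 3, 157, 255 and 319 for daf-2 and 362 with GFP. The ranges of both genotypes overlapped, and the GFP value lay inside the aak(0) range. This sum was 0.272% to 0.561% of the FPKM of all coding genes in the 7 libraries. Between 18.6% and 49% of the nhr reads of the 6 intestinal HZL-1 libraries came from their 3 most frequent genes. In the endogenous pair the same share was 8.37% in aak(0) and 23.5% in daf-2.

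The most abundant receptor transcript was nhr-88 in 6 of the 7 intestinal libraries. This gene (WBGene00003678; WBcel235 chromosome II, 2976639 to 2987023) was at 18.5, 23.1 and 20 FPKM for aak(0), at 17.3, 41.5 and 59.9 for daf-2 and at 28.4 with GFP. It varied little among aak(0) libraries (20.6 ± 2.34 FPKM, SD, n = 3) and widely in daf-2 (39.6 ± 21.3, SD, n = 3), and the groups overlapped. Transcripts of nhr-97 (WBGene00003687; IV, 9757648 to 9764494) ranked first in aak(0) replicate 1. They were at 64.9, 6.45 and 6.91 FPKM for aak(0), at 8.62, 20.7 and 54.1 for daf-2 and at 9.56 with GFP. A single library of each genotype thus stood above 50 FPKM for nhr-97, and the 2 other aak(0) libraries lay below every daf-2 library.

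Transcripts of nhr-49 (WBGene00003639; I, 9869632 to 9874676), whose product is the HNF4-like activator of fatty acid desaturation and oxidation genes, followed nhr-88 and nhr-97 by mean log2(FPKM + 1) over the 6 HZL-1 libraries. They were at 29.6, 16 and 13.8 FPKM for aak(0), at 7.67, 5.68 and 2.19 for daf-2 and at 22.3 with GFP. Every aak(0) library was above every daf-2 library, and GFP alone lay inside the aak(0) range. The receptor NHR-14 limits iron uptake in the intestine, and its transcripts were at 18.1, 2.84 and 3.08 FPKM for aak(0), at 2.65, 7.19 and 10.1 for daf-2 and at 6.71 with GFP. Transcripts of nhr-48, a relative of the DAF-12 gene, were at 15.7, 5.36 and 4.86 for aak(0), at 3.96, 5.01 and 3.73 for daf-2 and at 8.63 with GFP. Transcripts of nhr-41, the ortholog of the vertebrate testicular receptor genes, were at 9.87, 4.44 and 4.41, at 8.01, 7.81 and 2.34, and at 6.59 FPKM in the same order. For these 3 genes aak(0) replicate 1 held the highest value of the 7 libraries and the genotypes overlapped.

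The other genes among the 10 with the highest mean level were nhr-1, nhr-66, nhr-34 and nhr-274. The level of nhr-1 was 17.4, 5.07 and 4.77 FPKM for aak(0), 0, 7.64 and 12.7 for daf-2 and 12 with GFP, and the library at 0 held 51 reads of it. The level of nhr-34 was 13.4, 1.84 and 2.71 for aak(0), 2.59, 2.77 and 12.7 for daf-2 and 4.61 with GFP. The level of nhr-274 was 0, 5.55 and 6.77 for aak(0), 6.4, 5.24 and 9.57 for daf-2 and 10.2 with GFP. All 3 overlapped between genotypes. The last gene of the core, nhr-19, was lower, at 11.4, 1.20 and 1.77 FPKM for aak(0), 5.03, 2.05 and 0.36 for daf-2 and 2.87 with GFP, and it overlaps mrpl-53, so reads of both cannot be separated.

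**Figure D3:**
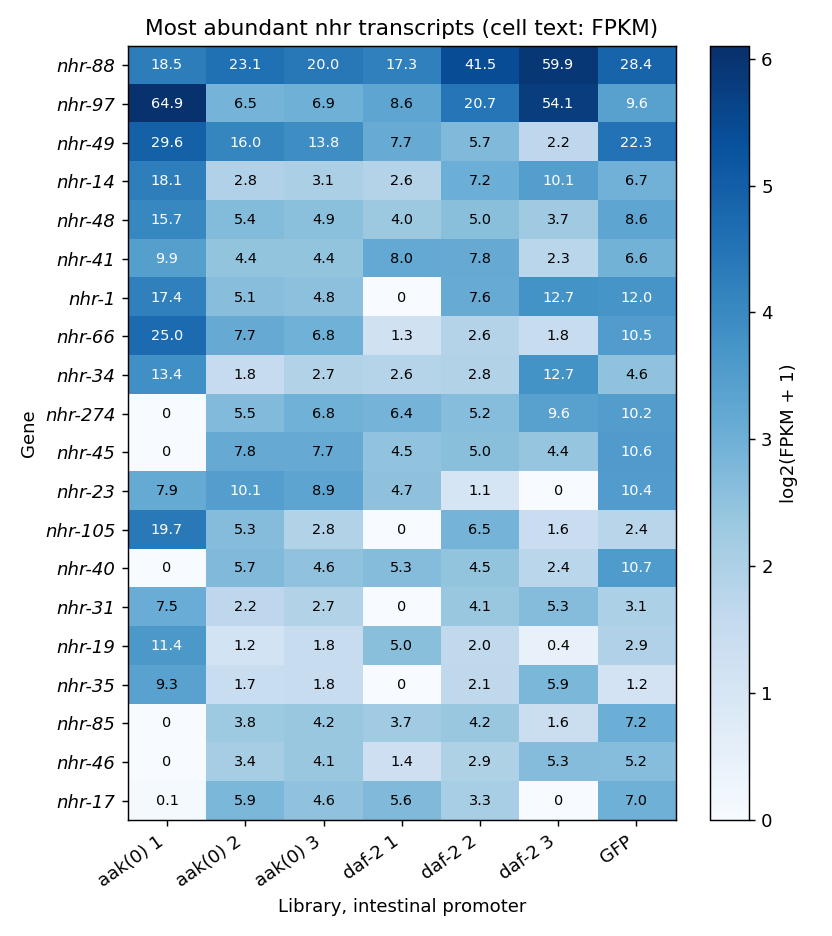
Each row is 1 of the 20 nhr genes with the highest mean log2(FPKM + 1) over the 6 intestinal HZL-1 libraries, each column is 1 of the 7 intestinal libraries, the numbers are FPKM and the shade is log2(FPKM + 1). The row of nhr-88 is filled in every library, from 17.3 to 59.9 FPKM, while nhr-97 ranges from 6.45 to 64.9.

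The comparison of aak(0) with daf-2 under the intestinal promoter asked whether the loss of AMPK changed which receptor transcripts came down with HZL-1. No nhr gene passed the threshold, a Benjamini-Hochberg adjusted p under 0.05 in limma. Of the 267 genes, 64 averaged 1 FPKM or more across the 7 libraries and were tested, and 0.0104% of the 9649 tested genes were called. At an unadjusted p under 0.05, 5 nhr genes were found (7.81%, against 4.35% of all tested genes), 3 of them higher (4.69%, against 4.09% of all) and 2 lower in aak(0) (3.12%, against 0.259%). The count of adjusted calls was also 0 with the quasi-likelihood test of edgeR and with DESeq2 on reads. Just inside the minimum lay nhr-69 and nhr-136, with means of 1.02 and 1.00 FPKM, and just outside nhr-126 and nhr-132, with 0.993 and 0.981.

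The 3 genes with the smallest p among those higher in aak(0) were nhr-66, nhr-49 and nhr-23. NHR-66 is a partner of NHR-49 that represses sphingolipid and other lipid genes. Transcripts of nhr-66 (WBGene00003656; IV, 8226337 to 8236602) were at 25.0, 7.73 and 6.81 FPKM for aak(0), at 1.32, 2.63 and 1.75 for daf-2 and at 10.5 with GFP. The lowest aak(0) library was above the highest daf-2 library, with a log2 difference of 2.09 ± 0.70 (SE), an unadjusted p of 0.0231 and an adjusted p of 0.717 in limma. This gene overlaps T09A12.5, and reads of both cannot be separated where strand was not used.

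The group means of nhr-49 were 19.8 ± 8.56 FPKM for aak(0) and 5.18 ± 2.77 for daf-2 (SD, n = 3 each). The log2 difference was 1.80 ± 0.63, higher in 3 of 3 aak(0) libraries, with an unadjusted p of 0.0270 and an adjusted p of 0.717 in limma. NHR-23 is the ortholog of vertebrate ROR and insect DHR3 and drives the moulting cycle. Transcripts of nhr-23 (WBGene00003622; I, 7214745 to 7221781) were at 7.9, 10.1 and 8.88 FPKM for aak(0), at 4.74, 1.06 and 0 for daf-2 and at 10.4 with GFP. The library listed at 0 held 84 reads of nhr-23, and aak(0) libraries lay close together and above all daf-2 libraries. The limma log2 difference of nhr-23 was 2.12 ± 0.80, with an unadjusted p of 0.0362 and an adjusted p of 0.717.

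Lower in aak(0) were nhr-116 and nhr-21, and nhr-47 came next by p. The level of nhr-116 (V, 16912234 to 16915350) was 0, 0 and 0.06 FPKM for aak(0), 3.96, 0.85 and 4.35 for daf-2 and 0.96 with GFP. Its log2 difference was -1.84 ± 0.58, with an unadjusted p of 0.0169 and an adjusted p of 0.717. The level of nhr-21 (II, 7339229 to 7349124) was 0, 0.87 and 0.93 for aak(0), 5.83, 2.18 and 5.77 for daf-2 and 1.22 with GFP. The limma log2 difference of nhr-21 was -1.78 ± 0.71, with an unadjusted p of 0.0433 and an adjusted p of 0.717. Both genes had daf-2 libraries that all lay above all aak(0) libraries. For nhr-47 the levels were 0, 0.87 and 1.86 for aak(0), 4.64, 1.48 and 2.34 for daf-2 and 2.00 with GFP, which overlap, and its aak(0) library at 0 held 201 reads.

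**Figure D4:**
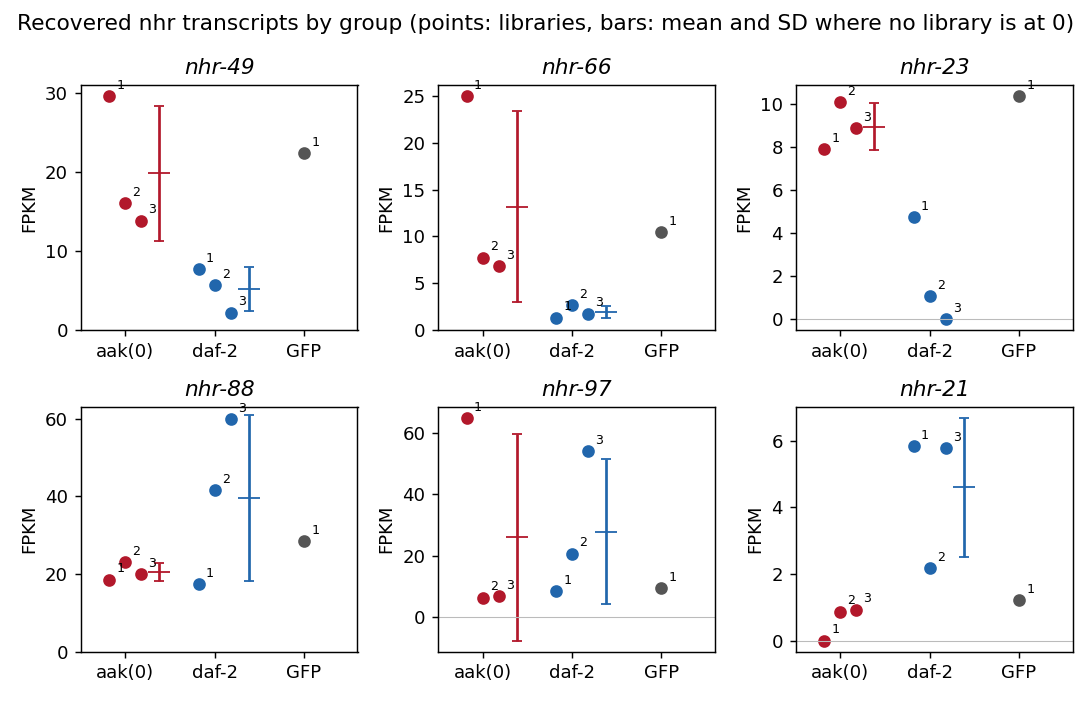
Points are the FPKM of 6 nhr genes in each intestinal library, numbered by replicate, and the horizontal marks with bars give the mean and SD (n = 3) where no library of the group is at 0. The aak(0) and daf-2 points do not overlap for nhr-49, nhr-66, nhr-23 and nhr-21, and they overlap for nhr-88 and nhr-97.

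Counting only the order of the libraries, 6 of the 64 tested nhr genes had every aak(0) library above every daf-2 library (9.38%, against 10% of all tested genes). These were nhr-13, nhr-219, nhr-23, nhr-49, nhr-6 and nhr-66, of which nhr-219 was named after its values were seen. The opposite order was found for nhr-116 and nhr-21, which is 3.12% of the tested nhr genes against 0.746% of all. The first share is near the background, and the second rests on 2 genes. The median log2 difference of the 64 genes was 0.14, and that of all tested genes 0.59. Of the 64, 34 were higher in aak(0) by any size (53.1%, against 70.3% of all). For 19 of the 64, more than 50% of the summed FPKM came from 1 library, which was aak(0) replicate 1 in 12 cases, daf-2 replicate 3 in 4 and daf-2 replicate 1 in 3.

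Receptors that act with NHR-49 on fat metabolism were low outside single libraries, apart from nhr-66. NHR-13 and NHR-80 pair with NHR-49, and NHR-80 activates the desaturases that make oleic acid. Transcripts of nhr-13 were at 19.8, 0.72 and 1.09 FPKM for aak(0), at 0, 0.37 and 0 for daf-2 and at 2.20 with GFP, so that 1 library held most of the signal. The limma log2 difference of nhr-13 was 1.92 ± 1.06 (adjusted p = 0.717). Transcripts of nhr-80 were listed at 1.02 FPKM in aak(0) replicate 3, at 1.08 with GFP and at 0 in the 5 other intestinal libraries. NHR-62, which is needed for the longer life of diet-restricted worms, had transcripts at 0, 1.66 and 1.39 for aak(0), 0, 1.01 and 4.85 for daf-2 and 2.47 with GFP.

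The receptors of the propionate and vitamin B12 pathways were likewise low in most libraries. NHR-10 and NHR-68 switch on the propionate shunt when vitamin B12 is scarce. Transcripts of nhr-10 were at 0, 1.24 and 2.57 FPKM for aak(0), at 0, 1.39 and 0 for daf-2 and at 1.34 with GFP. Transcripts of nhr-68 were at 0.56 in aak(0) replicate 3, at 3.41 with GFP and at 0 in the 5 other intestinal libraries. NHR-114 protects the germline when the diet is poor in vitamin B12 and controls methionine cycle genes. Its transcripts were at 0, 2.6 and 1.46 for aak(0), 0, 1.39 and 15.5 for daf-2 and 1.19 with GFP, with a single daf-2 library far above the rest. The gene overlaps Y45G5AM.9, and neither endogenous library held a read of nhr-114.

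Receptors known for responses to chemicals, infection and oxygen showed no order by genotype. NHR-8 acts in xenobiotic defence and cholesterol balance, and nhr-8 was at 0, 1.67 and 1.28 FPKM for aak(0), 0, 0.25 and 3.18 for daf-2 and 0.20 with GFP. NHR-86 senses a bacterial metabolite and starts an intestinal defence. Transcripts of nhr-86 were at 0, 3.96 and 2.98 for aak(0), 0.04, 1.47 and 0 for daf-2 and 7.72 with GFP. Transcripts of nhr-57, a target of the hypoxia factor HIF-1, were at 0, 0.20 and 1.38 for aak(0), 0 in each daf-2 library and 1.75 with GFP. The highest value of the 7 libraries was in GFP alone for nhr-86 and nhr-57. The excretory cell receptor gene nhr-31 was at 7.49, 2.23 and 2.74 for aak(0), 0, 4.14 and 5.27 for daf-2 and 3.07 with GFP.

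Developmental receptors other than nhr-23 lay low in most libraries. NHR-85, the ortholog of vertebrate Rev-erb, times larval transitions together with NHR-23, and its transcripts were at 0, 3.83 and 4.17 FPKM for aak(0), 3.67, 4.17 and 1.57 for daf-2 and 7.16 with GFP. NHR-25 is the ortholog of Ftz-F1 and acts in the epidermis, and nhr-25 was at 0, 1.02 and 1.16 for aak(0), 0, 0.98 and 0 for daf-2 and 2.10 with GFP. Transcripts of nhr-6, the NR4A ortholog that shapes the spermatheca, were at 9.80, 1.94 and 1.05 for aak(0), 0, 0.74 and 0 for daf-2 and 2.07 with GFP. The groups of nhr-6 did not overlap, and its limma log2 difference was 1.74 ± 0.81 (adjusted p = 0.717). The tailless-like gene nhr-67, known for its role in the anchor cell, was at 0, 0.49 and 0.66 for aak(0), 0, 0.75 and 0 for daf-2 and 0.44 with GFP. For nhr-91, the ortholog of germ cell nuclear factor, the values were 5.77, 0.05 and 0.32 for aak(0), 0, 0.23 and 0 for daf-2 and 1.06 with GFP.

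The HNF4-related genes nhr-64 and nhr-69 were also low. The level of nhr-64 was 0, 1.68 and 2.22 FPKM for aak(0), 0.31, 2.28 and 0 for daf-2 and 3.11 with GFP. The level of nhr-69 was 0, 0.86 and 2.12 for aak(0), 0, 1.49 and 0 for daf-2 and 2.67 with GFP. In both, GFP alone held the highest value and the sparse libraries the lowest.

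The comparisons with GFP alone asked which transcripts came down with HZL-1 beyond the tag. No nhr gene passed the threshold against GFP from either genotype, where 1.07% of all tested genes did in each contrast, and none of the 64 had an unadjusted p under 0.05 (1.94% of all tested genes for aak(0), 7.54% for daf-2). Both contrasts rest on the same 1 GFP library, assumed in limma to vary like the replicated groups, and the daf-2 contrast differs in genotype as well. The smallest p for daf-2 belonged to nhr-49, with a log2 difference from GFP of -2.03 (unadjusted p = 0.0596, adjusted p = 0.599). For aak(0) the smallest adjusted p among the 64 was 0.960. With no filter on low values, limma called 25 of 244 nhr genes against GFP in aak(0) (10.2%, against 9.68% of 21264 genes) and 29 in daf-2 (11.9%, against 11% of all). All of these calls were lower with HZL-1 and had a mean under 1 FPKM over the 7 libraries, and 11 and 27 of them were at 0 in all 3 HZL-1 libraries of their genotype.

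Some receptors nevertheless lay on the same side of the GFP value in all libraries of a genotype. In aak(0), every library was above GFP for nhr-105, nhr-219, nhr-35 and nhr-79 (6.25%, against 3.09% of all tested genes), where the last 3 were named after their values were seen. The level of nhr-105 was 19.7, 5.27 and 2.76 FPKM against 2.44 with GFP. Every daf-2 library was above GFP for nhr-21 alone (1.56%, against 1.1% of all). Every library was below GFP for 27 of the 64 in aak(0) (42.2%, against 50.3% of all) and for 26 in daf-2 (40.6%, against 57.6%). The median log2 difference from GFP was -0.37 for the 64 genes and -0.79 for all tested genes in aak(0), and it was -0.44 and -1.28 for daf-2. The family thus lay above the median gene by 0.42 and 0.83 on this scale, a description that rests on 1 control library. For aak(0) this distance was -0.037 without aak(0) replicate 1, so the distance rested on that library. With quantile normalization, which moved the median of all genes to 0.02 and 0.09, the family's medians were 0.23 and 0.66.

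Under the endogenous promoter, 1 library per genotype was made, so the values have no replicate check and no p is given. Recovered nhr reads were spread over many more genes in aak(0). Of 224 nhr genes with a mean of at least 1 CPM (reads scaled to the gene reads of the library), 161 were at least 2-fold higher in aak(0) (71.9%, against 59.2% of the 18987 genes that passed the same minimum). In daf-2, 23 were at least 2-fold higher (10.3%, against 15.1%). Ribosomal RNA took 30.0% of the aak(0) reads and 70.4% of the daf-2 reads. With it left out of the library size every CPM ratio of aak(0) over daf-2 is multiplied by 0.423. The 2-fold counts were made on log2(CPM + 1), which does not change by that fixed factor. With that library size they were 136 higher in aak(0) (60.7%, against 51.2% of all) and 43 higher in daf-2 (19.2%, against 29.9%). The median log2 ratio of aak(0) over daf-2, on log2(CPM + 1), was 2.71 for the nhr genes, 1.92 for all genes and 1.31 for coding genes.

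Many of these genes were seen in a single library of the pair. Of the 267 genes, 127 had reads in aak(0) and none in daf-2 (47.6%, against 33.7% of coding genes), 10 had reads in daf-2 and none in aak(0) (3.75%, against 4.87%), 103 had reads in both and 27 in neither. The 127 genes had a median of 209 reads in aak(0), with up to 820, and most of them had more than 100. For these genes the absence from daf-2 came at 58132094 gene reads against 24035823 in aak(0). Reads of coding genes were nearly equal, at 1.67e+07 in daf-2 and 1.62e+07 in aak(0). Among the 103 genes with reads in both, 68.9% had the higher CPM in aak(0), with a median ratio of 1.89, against 54.8% and 1.15 for coding genes. With ribosomal RNA left out of the library size this direction turned: 42.7% of the 103 genes were higher in aak(0), with a median ratio of 0.801, against 26.2% and 0.486 for coding genes. On log2(CPM + 1) over all genes that passed the minimum, which include those with no reads in daf-2, the median with that library size was 2.92 for nhr genes and 1.32 for all.

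The receptor transcript with the most reads per relative length was nhr-53 in the endogenous aak(0) library and nhr-97 in the endogenous daf-2 library, among 154 nhr genes whose length could be inferred from reads and FPKM. The gene nhr-53 (WBGene00003643; V, 15700606 to 15702363) had 3045 reads in aak(0) and 287 in daf-2, or 127 and 4.94 CPM, a ratio of 25.7 (exact binomial 95% interval 22.7 to 29.1, covering counting error only). In the intestinal set nhr-53 was almost absent, at 0, 0 and 0.86 FPKM for aak(0), 0, 0.30 and 0 for daf-2 and 0 with GFP. For nhr-97 the CPM was 61.4 for aak(0) and 128 for daf-2, higher in daf-2 by a factor of 2.09 (1.97 to 2.21). The most abundant intestinal receptor gene, nhr-88, stood at 60.0 CPM in aak(0) and 84.5 in daf-2, a ratio of 0.709 (0.668 to 0.752).

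The largest ratios in aak(0) belonged to genes with no reads in daf-2, so they were taken against a floor of 3 reads. They are not lower bounds, since the lower limits of the exact binomial intervals were smaller. With ribosomal RNA left out of the library size, ratios of aak(0) over daf-2 are smaller as well. The gene nhr-195 had 820 reads in aak(0) and was 661-fold higher against the floor (lower limit 536). It was followed by nhr-32 with 802 reads (647-fold, lower limit 525) and nhr-217 with 744 (599.8-fold, 487). Next came nhr-256 with 724 reads (584-fold, 473) and nhr-153 with 699 (564-fold, 457). In the other direction nhr-119, with 560 reads in daf-2 and 0 in aak(0), was 77.2-fold higher in daf-2 against the floor. For nhr-21 with 492 reads this value was 67.8-fold, and for nhr-169 with 305 reads 42.0-fold. The upper limits of their ratios of aak(0) over daf-2 were 0.0160, 0.0182 and 0.0294. Reads of nhr-105 numbered 2 in aak(0) and 730 in daf-2, a CPM ratio of aak(0) over daf-2 of 0.00663 (0.000801 to 0.0240), and those of nhr-100 numbered 1 and 560, a ratio of 0.00432 (0.000109 to 0.0242). High counts in one library beside none in the other were thus seen in both directions.

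**Figure D5:**
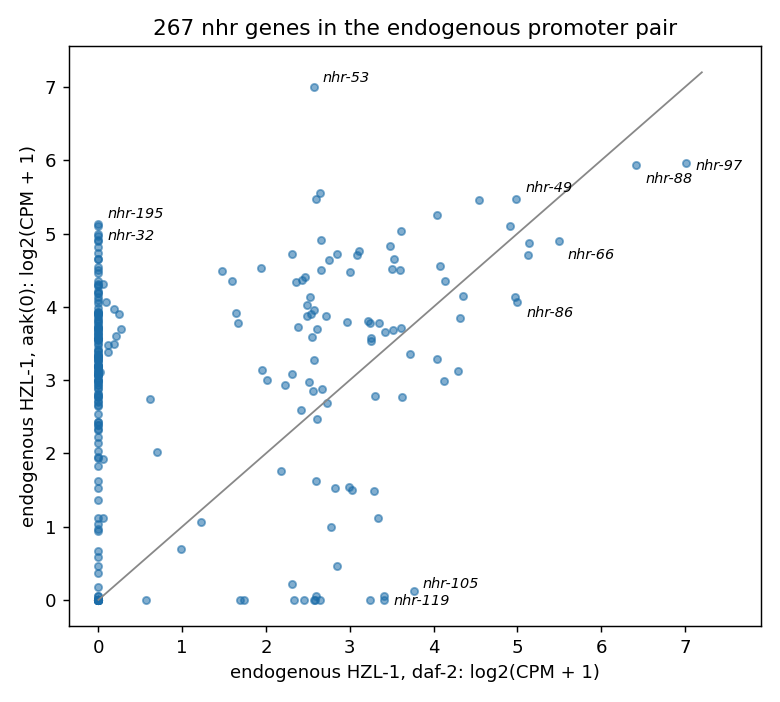
Each point is 1 of the 267 nhr genes, with log2(CPM + 1) in the endogenous daf-2 library on the horizontal axis and in the endogenous aak(0) library on the vertical axis, and the line marks equal values. Many points lie on the vertical axis, where 127 genes had reads only in aak(0), and nhr-97 and nhr-88 lie to the right of the line.

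The tested receptors whose intestinal libraries separated by genotype did not all keep their direction in the endogenous pair. The ratio of aak(0) over daf-2 for nhr-49 was 1.41 (interval from 1.3 to 1.52), from 43.1 and 30.6 CPM, in the same direction as under the intestinal promoter, but 0.596, in the opposite direction, with ribosomal RNA left out of the library size. The directions of nhr-66, nhr-23, nhr-21 and nhr-116 were the same under both library sizes. For nhr-66 it was 0.655 (0.601 to 0.712), from 28.9 and 44.1 CPM, and for nhr-23 it was 0.822 (0.752 to 0.897), from 28.1 and 34.2 CPM, both in the opposite direction. Reads of nhr-21 numbered 0 and 492, in the same direction, whereas nhr-116 had 5.70 and 0.533 CPM, a ratio of 10.7 (7.2 to 16.3) in the opposite direction. The ratio of nhr-13 was 7.85, and 3.32 with ribosomal RNA left out, in the same direction as under the intestinal promoter. That of nhr-6 was 1.18, in the same direction, but 0.498 with ribosomal RNA left out. Neither endogenous library held a read of nhr-219. The difference between promoters was not tested, since each endogenous value is 1 library.

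The list of 23 receptors with a known role held 21 with reads in both endogenous libraries, of which 13 had a ratio of aak(0) over daf-2 above 1, and 8 with ribosomal RNA left out of the library size. For nhr-80, the partner of NHR-49 nearly missing from the intestinal set, 377 reads in aak(0) and 4 in daf-2 gave a ratio of 228 (88.3 to 841). For nhr-25, 227 and 5 reads gave 110 (46.4 to 341), and for nhr-13, 532 and 164 reads gave 7.85. The hypoxia target nhr-57 had 293 reads in aak(0) and 0 in daf-2. Against a floor of 3 reads it was 236-fold higher, with a lower interval limit of 191. Ratios above 1 under both library sizes were also found for nhr-68 (4.09), nhr-41 (2.93), nhr-64 (2.91), nhr-8 (2.72) and nhr-91, the last from 184 reads and 1. The ratios of nhr-31 (1.93), nhr-62 (1.89), nhr-6 (1.18) and nhr-48 (1.14) were below 1 with ribosomal RNA left out, at 0.816, 0.799, 0.498 and 0.481. Higher in daf-2 under both library sizes were nhr-69, by a factor of 16.5 (8.62 to 36.5), and nhr-86, by 1.97. The ratio of aak(0) over daf-2 was also below 1 for nhr-10 (0.567), nhr-14 (0.714), nhr-85 (0.855) and nhr-67 (0.888), beside nhr-66 and nhr-23.

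Genes that act with or downstream of these receptors were read from lists of 38 genes, of which 24 were tested in the intestinal set. None passed the threshold in any contrast (0 higher and 0 lower, limma), and none had an unadjusted p under 0.05. Their median log2 difference of aak(0) from daf-2 was 0.62, against 0.59 for all tested genes. The dafachronic acid receptor gene daf-12 was more abundant than most nhr genes, at 44.4, 25.2 and 29.1 FPKM for aak(0), 7.28, 29.0 and 54.8 for daf-2 and 47.4 with GFP. Transcripts of the DAF-12 corepressor gene din-1 were at 55, 43.1 and 43.5 for aak(0), 14.6, 36.9 and 42.9 for daf-2 and 77.8 with GFP. MDT-15 is the mediator subunit through which NHR-49 acts, and its transcripts were at 14.6, 27.1 and 26.9 for aak(0), 27.1, 18.2 and 19.5 for daf-2 and 37.1 with GFP.

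Of the 24, 4 had every aak(0) library above every daf-2 library (16.7%, against 10% of all tested genes), namely cbp-1, din-1, metr-1 and mthf-1. The acetyltransferase gene cbp-1 was at 28.4, 16.1 and 16.7 FPKM against 9.98, 8.61 and 8.03, with 25.6 under GFP. Target genes of the lipid receptors overlapped between genotypes. The desaturase gene fat-6 was at 53.5, 8.20 and 9.82 for aak(0) and at 29.5, 4.83 and 15.2 for daf-2, and acs-2, the acyl-CoA synthetase gene induced by NHR-49 in fasting, was at 11.9, 2.54 and 1.88 and at 0.15, 3.87 and 0.60. In the propionate shunt, alh-8 was the most abundant gene, at 117, 130 and 132 FPKM for aak(0) and 107, 125 and 256 for daf-2, with 125 under GFP. Genes of dafachronic acid synthesis (daf-9, daf-36, dhs-16, hsd-1 and strm-1) did not pass 1.22 FPKM in any intestinal library, and none was tested. In endogenous aak(0), 531 reads of daf-9, 649 of daf-36, 298 of dhs-16 and 267 of strm-1 were found, with none in daf-2, and hsd-1 had none in either.

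In the authors' deposited table of the same intestinal comparison, 252 nhr genes had a p-value and 30 had an unadjusted p under 0.05 (11.9%, against 13.3% of all genes with a p). None of the 252 had an adjusted p under 0.05 in the authors' deposited table, and the lowest was 0.334. All 30 had reads in just 1 of the replicate 1 libraries of both genotypes, and 15 of them were higher in aak(0).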

How the data were processed

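Trimmomatic 0.35, the aligner STAR 2.7.1a, RSEM, DESeq2 1.30.1 and the build WBcel235 are named in the submitters' processing notes, without settings. FPKM values were deposited by the authors for the 7 intestinal libraries. Another table of the authors gave, for the HZL-1 libraries among them, a signal per gene that is reads over 1 factor per library. Whole reads were recovered from it (100% of values within a tolerance of 0.01). It also holds the authors' log2 fold changes, p-values, adjusted p-values and a test score, which was not used, from an undescribed model. The authors deposited counts of reads per gene for the endogenous pair, where 4 entries that name no gene took 62.1% and 29.6% of reads and were left out. No source used here says whether counting was stranded, and 29 nhr genes overlap another coding gene.

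With limma 3.58.1 (R 4.3.3), a model with a variance trend was fitted to log2(FPKM + 1) of all 7 libraries (1 mean per group, 4 residual degrees of freedom). Genes averaging 1 FPKM or more entered, and p was adjusted over all 9649. A pseudocount of 1 understates the change of low genes. Alternatives were other pseudocounts, filters, scalings and samples, and edgeR 4.0.16 and DESeq2 1.42.0 on the recovered reads. The fits were run on simulated data without sparse libraries, for limma with less spread than here. That run does not show how the fits perform on these libraries. Endogenous CPM had a minimum mean of 1 and a floor of 3 reads. Floors and intervals cover counting error only, since reads are not independent molecules. Replicates may or may not be separate cultures by the labels, so each p-value reflects only the spread of these samples, possibly technical. Members and lists were chosen with earlier results of these data known. Genes named were the 10 highest by mean log2(FPKM + 1), the first of each library per length, those in all 9 libraries, 3 per direction by p, 5 per direction by endogenous ratio with at least 50 reads, and receptors with a known role. Deviations of same-numbered aak(0) and daf-2 libraries had correlations of -0.11, -0.046 and -0.10, against -0.10 to 0.12 for differently numbered ones. So few pairs cannot tell whether the numbers mark shared batches, and the main fit used no pairing.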

Additional observations from a re-analysis of the deposited data

Results flagged for a closer look

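For 3 receptor genes the order of the genotypes under the intestinal promoter, in which all libraries of a genotype lay on 1 side, was opposite to that of the endogenous pair. The difference was not tested, because each endogenous value is 1 library. For nhr-66 the endogenous log2(CPM + 1) ratio of aak(0) over daf-2 was -0.5939, against an intestinal log2 difference of 2.09. For nhr-23 it was -0.2747 against 2.12. For nhr-116 it was 2.128 against -1.84. The order was the same under both promoters for nhr-13 and nhr-21, and for nhr-49 and nhr-6 it depended on the library size.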

How the results depend on the processing

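No nhr gene was called between aak(0) and daf-2 under any of the 21 alternatives, including the fit with a replicate block (0 genes, and 0 of all 9649 where the fit without it called 1), which was not run against GFP. Against GFP, 25 and 29 nhr genes were called in aak(0) and daf-2 with no filter on low values, and 0 under the other alternatives. The log2 difference of nhr-48 became -0.14 with quantile normalization. Leaving out 1 library at a time moved that of nhr-97 between -1.56 and 0.12 (0.12 without daf-2 replicate 3, 0.015 without aak(0) replicate 2), and nhr-47 stood at 0.078 in edgeR without a filter. In the authors' deposited table nhr-97 was at 2.35, nhr-88 at 0.017 and nhr-47 at 0.44, as log2 of aak(0) over daf-2, with the deposited sign turned. A second column of the authors, labelled unshrunken, gave 1.14, 1.40 and 0.574 for them as daf-2 over aak(0). By that column these genes were lower in aak(0), as in the main fit. The direction of nhr-49, nhr-66, nhr-23, nhr-116 and nhr-21 stayed the same under every alternative that gave a value, from 0.95 to 2.10 for nhr-49, and the lowest adjusted p of nhr-49 was 0.227 (0.0726 without the sparse libraries, a fit with a single daf-2 library and 1 residual degree of freedom, which is assumed to vary like the other groups). The median of the tested nhr genes minus that of all genes, for aak(0) against daf-2, was -0.45. It became -0.98 in edgeR without a filter and -0.87 without the sparse libraries, an alternative chosen after seeing the data. Leaving out 1 library at a time gave -0.77 to -0.10. In the authors' deposited table it was -1.3e-05, where both medians were 0.3248 as aak(0) over daf-2. Most nhr rows there carried almost exactly that value, so this distance cannot show where the family stood. For aak(0) against GFP the same distance was -0.037 without the sparse libraries, and between -0.037 and 0.63 with 1 library left out. For daf-2 against GFP it was 0.30 with a pseudocount of 10 and 0.31 without a filter. In the endogenous pair, with ribosomal RNA left out of the library size, 43 nhr genes were at least 2-fold higher in daf-2 (19.2%, against 29.9% of all genes) and 136 in aak(0) (60.7%, against 51.2%). At 1 FPKM or more, detected nhr genes numbered 67 and 64 in aak(0) replicates 2 and 3, 59 in daf-2 replicate 2 and 87 with GFP. The cause of these changes was not tested. A floor of 3 reads is up to 0.419 CPM in the intestinal set, and the part of depth in the detection of low receptors was not tested.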

Other observations

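Of the 14 rows named nhr- and listed as pseudogenes, several were recovered with the endogenous promoter. The pseudogene row nhr-266 had 643 reads in endogenous aak(0) and 304 in daf-2, and nhr-200 had 299 and 0. In the intestinal set nhr-266 was at 0, 0.77 and 0.60 FPKM in aak(0), at 0 in each daf-2 library and at 0.92 with GFP. These rows were chosen after their values were seen.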
